A study of Mus musculus with 4 samples.

Results

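Lysosomal enzymes and membrane proteins are described here in neural stem cells from mouse embryos with and without Olig1, a transcription factor gene of the oligodendrocyte lineage. A list of 36 genes was taken, and every probe set that the platform annotation gives to 1 of them alone was used. This found 66 probe sets for 35 of the 36 genes, out of 12393 genes on the array, and Cd63 was not measured. Of the 35 genes, 33 were kept by a filter that left out the 40% of genes with the lowest mean log2 signal, and Tfeb and Ctss were left out by it.

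The cells were neural stem cells of the ganglionic eminences, which lie in the ventral forebrain, taken at embryonic day 14.5. They were grown without serum in stem cell medium with EGF and had a C57/Bl6 background. The genotype labels give 1 wild-type and 3 Olig1 KO arrays, the latter called KO replicates 1, 2 and 3. In the sample titles KO replicates 2 and 3 each carry a number of their own, while wild type and KO replicate 1 carry none. What the numbers stand for is not stated, and neither embryos, cultures nor the design of the KO allele are named. The p-values therefore measure the spread between these samples alone. The values are MAS5 signals, in which brightness is summarised per probe set on a linear scale.

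The lysosome is the acidic compartment in which cells break down proteins, sugars and lipids. Its soluble hydrolases are made in the endoplasmic reticulum, and most are tagged with mannose 6-phosphate in the Golgi and carried on by receptors for that tag. Its membrane holds heavily glycosylated proteins, transporters and channels, and its genes share a regulator, the transcription factor TFEB, which binds the CLEAR motif in many of their promoters. Inherited loss of single members causes storage disorders that often damage the brain, and lysosomes are known to be abundant in quiescent neural stem cells.

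By sex-linked transcripts, spiked-in controls and ribosomal RNA, though not over all genes, the arrays formed 2 pairs not matching genotype, with wild type beside KO replicate 1, and KO replicate 2 beside KO replicate 3. Over all kept genes the SD of the log2 differences was 0.36 between wild type and KO replicate 1 and 0.51 between KO replicates 2 and 3, and it was 0.46 between KO replicates 1 and 2. Xist, the RNA of the inactive X chromosome, gave 9480.5 and 8472.5 in the first pair against 160.9 and 46.5 in the second, and the Y-linked gene Eif2s3y gave 0.608 and 1.53 against 654 and 1160.5. Spiked-in control transcripts also separated the pairs, with median ratios to wild type of 0.898, 1.89 and 2.75 in KO replicates 1, 2 and 3. For beta-actin the ratio of 3' to 5' signal, which rises as RNA degrades, was 1.11 for wild type and 1.25, 1.30 and 1.82 for KO replicates 1, 2 and 3. The median of the 18S ribosomal probe sets was 4.64 and 7.24 in the first pair against 946 and 2823 in the second. The targeted gene did not separate the labels, since its only probe set gave 7618 for wild type against 3839.6, 4438 and 8548 across KO arrays. Whether that probe set lies in the deleted part is not known here, so the arrays are called by their labels. A genotype difference within a pair can be read only from 2 single arrays, the wild type and KO replicate 1.

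Markers of the labelled cell type were present. Of 9 measured neural stem cell markers, 8 were above background in all 4 arrays, where background is the highest signal in that array of 27 bacterial control probe sets with no target (30.5 for wild type, then 21.3, 39.99 and 87.8 for KO replicates 1, 2 and 3). Macrophages and microglia, which are rich in lysosomes, were looked for with 15 markers. Only 2 of these were above background in all 4 arrays, Csf1r and Cd14, and 5 were at background in all 4, Ptprc, Fcgr3, Fcer1g, C1qa and C1qc. Their signals summed to 573 for wild type and to 603 to 791 for KO. Ctss, a cysteine protease of macrophages and microglia and a member of the list, was at background in every array (29.9, 11.1, 13.1 and 14.1).

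The CLEAR motif was looked for in the promoters, since it is the sequence through which TFEB is known to act on lysosomal genes. RefSeq promoters (GRCm38.p6, 250 bases before to 50 bases after the start site) were available for 31 of the 36 listed genes. The 8-letter core TCACGTGA, which reads the same on both strands, lay in the promoters of 5 of these 31 genes (16.1%), against 1.12% of the 27025 genes in the table. The shorter core CACGTG, which the 8-letter core contains, lay in 9 of 31 (29.0%), against 8.09% of all genes. A match is a description of letters and shows no binding. The 5 genes with the longer core were Cln3, Ctsa, Ctsd, Gla and Mcoln1. Their promoter stretches before the start site are shown together with that of Lamp1, which holds the shorter core 4 times. Capitals mark the matches, with all 8 letters where the longer core is present. The Lamp1 stretch is chr8:13159080-13159160 on the plus strand, Cln3 chr7:126583332-126583405 on the minus strand, Mcoln1 chr8:3500428-3500499 on the plus strand, Ctsa chr2:164833741-164833772 on the plus strand, Ctsd chr7:142387900-142388077 on the minus strand and Gla chrX:134601174-134601252 on the minus strand. Each is written 5′ to 3′ in the direction of the gene.
Lamp1: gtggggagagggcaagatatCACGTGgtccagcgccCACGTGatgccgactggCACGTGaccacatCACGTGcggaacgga
Cln3: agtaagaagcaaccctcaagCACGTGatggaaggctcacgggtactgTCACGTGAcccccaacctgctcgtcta
Mcoln1: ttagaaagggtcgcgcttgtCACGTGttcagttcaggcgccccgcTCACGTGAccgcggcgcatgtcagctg
Ctsa: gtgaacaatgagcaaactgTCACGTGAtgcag
Ctsd: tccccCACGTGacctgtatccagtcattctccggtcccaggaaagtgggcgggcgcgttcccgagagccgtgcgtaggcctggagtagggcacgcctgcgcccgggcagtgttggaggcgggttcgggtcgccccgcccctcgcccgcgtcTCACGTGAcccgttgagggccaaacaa
Gla: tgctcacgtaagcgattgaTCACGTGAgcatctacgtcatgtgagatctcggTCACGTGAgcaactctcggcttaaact
In Gla the core occurred 2 times, and its first base lay 228 and 195 bases before the start site. In Mcoln1 the 8-letter core began 46 bases before the start site, in Ctsd 99, in Cln3 122 and in Ctsa 13. Ctsa held the core once more, beginning 4 bases after the start site and not shown. Among kept members the median KO-minus-wild-type difference (log2) was -0.41 for the 5 genes with the 8-letter core and -0.0033 for the 23 genes with a promoter and no such core, and this was not tested. Between wild type and KO replicate 1 alone these medians were -0.071 and 0.075. Without KO replicates 1, 2 and 3 in turn the first was -0.56, -0.31 and -0.26, and the second was -0.079, 0.069 and 0.041. Of the 5 genes, Mcoln1 has another probe set above background in all arrays, which differed by 0.26.

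None of the lysosomal genes was called as differing by genotype. On the log2(signal + 14.4) scale, limma gave 0 of 33 kept members an adjusted p under 0.05 (0.99997 for each), and 0 of 33 an unadjusted p under 0.05. Over all 7436 kept genes, percentages called by the adjusted p were 0 in each direction, and the unadjusted p called 1.32% higher and 0.941% lower. The KO mean was above the wild-type value for 13 members and below it for 20, against 49.9% above and 50.1% below over all kept genes. Of the 33 members, 6 were above the wild type in all 3 KO arrays (background 23.2%) and 7 were below it in all 3 (background 20.6%), shares of 18.2% and 21.2% that lie near the background. Without KO replicate 1, 17 members (51.5%) were below the wild type in both other KO arrays, against 34.9% of all kept genes. Without KO replicate 3 there were 13 (39.4%), against 28.6%. The median log2 difference of the members was -0.059, against -0.00014 over all kept genes. Within the first pair, KO replicate 1 against wild type, it was 0.066. Leaving out KO replicates 1, 2 and 3 in turn gave -0.13, 0.014 and -0.064, and it was -0.12 with every probe set fitted alone. The uncalled differences of Asah1, Grn, Lamp1, Lamp2 and Npc2 changed sign under quantile normalization, median centring or both. The spread of a gene over the 3 KO arrays was also similar, with a median log2 SD of 0.25 for the members and 0.27 for all kept genes.

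**Figure D1:**
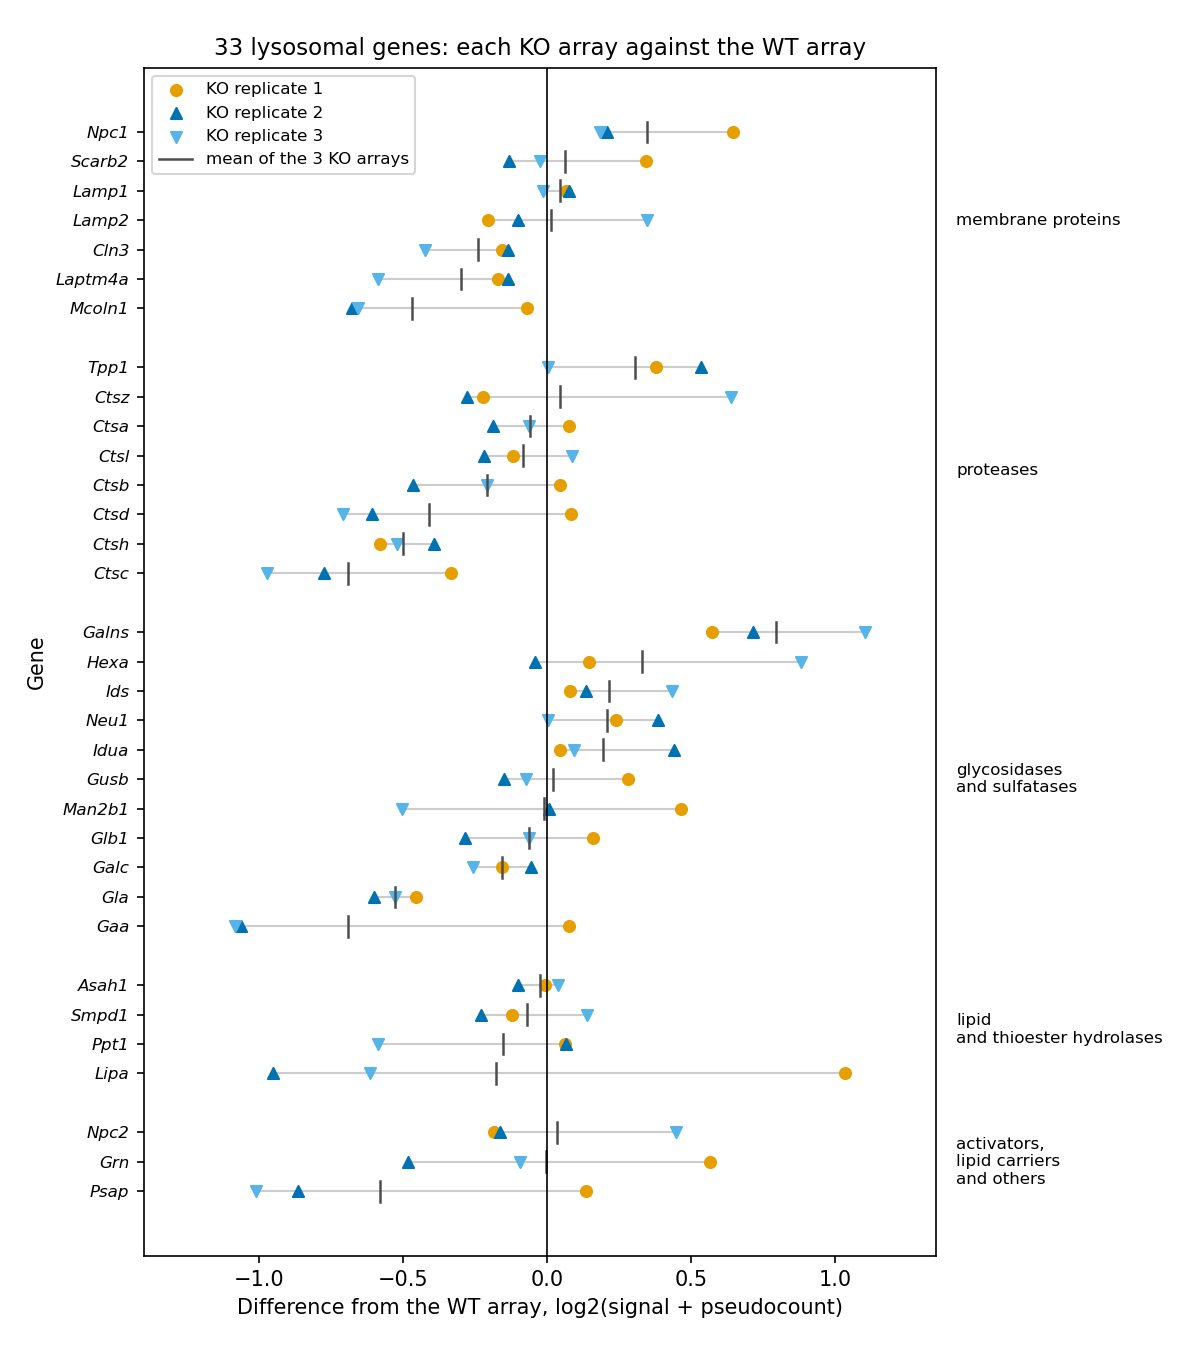
Difference of each KO array from the wild-type array for 33 lysosomal genes, on the log2(signal + pseudocount) scale, grouped by role, where points are single arrays, grey lines join them and vertical ticks are the mean of the 3 KO arrays. Galns lies to the right of 0 in all 3 arrays and Ctsc, Ctsh and Gla to the left in all 3, while Psap, Ctsd and Gaa are left of 0 only in KO replicates 2 and 3.

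Among the membrane proteins, Lamp1, the main glycoprotein of the lysosomal coat, was the steadiest over the KO arrays. Its only probe set gave 6193 for wild type against 6485, 6532 and 6138 across KO arrays, which overlap the wild type, with a log2 difference of 0.043 (SE 0.30). Lamp2, its paralogue and a receptor gene of chaperone-mediated autophagy, gave 6725 for wild type against 5832, 6267 and 8557 across KO arrays, again on both sides of the wild type (0.014, SE 0.35). The remaining 3 probe sets of Lamp2 differed by -0.23, -0.12 and 0.17. Npc1, the membrane transporter that exports cholesterol from the lysosome, gave 207 for wild type against 332, 241 and 237 across KO arrays, with a log2 difference of 0.35 (SE 0.34). All 3 KO arrays were above the wild type, and the highest of them was KO replicate 1.

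Laptm4a, a small membrane protein of late endosomes and lysosomes, gave 9053 for wild type against 8037, 8241 and 6013 across KO arrays (log2 difference -0.30, SE 0.34). Every KO array lay below the wild type, and KO replicate 3 lay lowest. Cln3, a membrane protein gene mutated in juvenile Batten disease, gave 241 for wild type against 215, 218 and 176 across KO arrays (-0.24, SE 0.31), with the same order. Mcoln1, the lysosomal calcium channel, gave 494 for wild type against 469.6, 303 and 308 across KO arrays (-0.47, SE 0.37). KO replicate 1 lay close to the wild type, and the other KO arrays were well below both. The second probe set of Mcoln1 ran the other way, at 237 for wild type against 267, 298 and 295 across KO arrays (0.26). Scarb2, the sorting receptor of glucocerebrosidase, gave 1954 for wild type against 2479.8, 1780.3 and 1919 across KO arrays, on both sides of the wild type.

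Of the 8 kept proteases, 2 were below the wild type in all KO arrays (25%, background 20.6%) and 1 was above (12.5%, background 23.2%). Ctsc, the dipeptidyl peptidase that activates serine proteases of immune cells, gave 2514 for wild type against 1993, 1464 and 1275 across KO arrays. The groups did not overlap, and the log2 difference of -0.69 (SE 0.36) was the most negative of the 33, level with Gaa to 2 decimals. With a pseudocount of 1 Gaa was lower (-0.72 against -0.70), and with the mean of all probe sets Psap was (-0.85). Ctsh, an aminopeptidase, gave 184 for wild type against 118, 137 and 124 across KO arrays (-0.50, SE 0.30). The KO arrays lay close together, with KO replicate 1 the lowest, so the difference was also present within the first pair. Tpp1, the tripeptidyl peptidase lost in late infantile Batten disease, gave 1409.5 for wild type against 1836, 2049.7 and 1413 across KO arrays (0.31, SE 0.34). KO replicate 3 was barely above the wild type, and the other probe set of Tpp1 differed by -0.26.

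Ctsd, the main aspartic protease of the lysosome, and Ctsb, an abundant cysteine protease, had KO arrays on both sides of the wild type in the probe sets used for the genes. Ctsd gave 3751 for wild type against 3975, 2457 and 2289.98 across KO arrays (-0.41, SE 0.40). Ctsb gave 3608 for wild type against 3718, 2611 and 3120.15 across KO arrays (-0.21, SE 0.34). In both of these probe sets KO replicate 1 was above the wild type and the remaining KO arrays were below, while 2 other probe sets of Ctsb had all KO arrays below it. The other proteases differed by -0.085 (Ctsl, a cysteine endopeptidase), -0.059 (Ctsa, the protective protein of neuraminidase and beta-galactosidase) and 0.046 (Ctsz, a carboxypeptidase), and in these 3 genes the KO arrays lay on both sides of the wild type.

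The glycosidases and sulfatases ran from Gaa at -0.69 to Galns at 0.80 on the log2 scale. Galns, the sulfatase of keratan sulfate and chondroitin 6-sulfate, gave 89.8 for wild type against 140.3, 156.6 and 209 across KO arrays. All KO arrays lay above the wild type, and the log2 difference of 0.80 (SE 0.34, limma unadjusted p = 0.052, adjusted p = 0.99997) was the highest of the 33. KO replicate 1 was 1.56 times the wild-type array, so the difference was present within the first pair as well. Galns has 1 probe set on the array.

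Gla, the X-linked alpha-galactosidase deficient in Fabry disease, gave 261 for wild type against 186, 167 and 176 across KO arrays (-0.53, SE 0.30). The KO arrays lay close together and below the wild type, and the ratio of KO replicate 1 to the wild type was 0.714. Gaa, the acid alpha-glucosidase of glycogen breakdown, gave 475 for wild type against 501, 219.7 and 216 across KO arrays (-0.69, SE 0.50). Here KO replicate 1 was above the wild type and the others lay far below both, so the KO arrays spanned the wild-type value. The other probe set of Gaa differed less, at 310 for wild type against 338, 218 and 255 across KO arrays (-0.21). With the mean of all probe sets Gaa was -0.45.

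Besides Galns, the glycosidases and sulfatases above the wild type in all 3 KO arrays were Idua, the iduronidase of heparan and dermatan sulfate (0.19), Ids, the X-linked sulfatase of the same pathway (0.21), and Neu1, the lysosomal sialidase (0.21). Neu1 was barely above it in KO replicate 3, at 307.1 against 306.8. For Idua, Ids and Neu1, another probe set above background in all arrays had KO arrays on both sides of the wild type. Galc, the galactosylceramidase of myelin lipid turnover, was below the wild type in all 3 KO arrays (-0.16). Hexa, a subunit of beta-hexosaminidase, gave 1633 for wild type against 1809, 1587 and 3023 across KO arrays, so its difference of 0.33 (SE 0.42) came with KO replicate 3 far above the rest. Glb1 (beta-galactosidase), Gusb (beta-glucuronidase) and Man2b1 (alpha-mannosidase) differed by -0.064, 0.019 and -0.011, with KO arrays on both sides of the wild type.

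In the probe sets used for them, none of the 4 lipid and thioester hydrolases had all KO arrays on 1 side of the wild type. Over all kept genes, 23.2% lay above it and 20.6% below it in all 3. Asah1, the acid ceramidase, gave 4071 for wild type against 4046, 3798 and 4178 across KO arrays (-0.024, SE 0.30). Smpd1, the acid sphingomyelinase, and Ppt1, a palmitoyl-protein thioesterase, differed by -0.071 and -0.15. The other probe set of Ppt1 gave 520 for wild type against 415, 399.96 and 289 across KO arrays (-0.50), all below the wild type. Lipa, the acid lipase of cholesteryl esters, had the widest spread of the list over the KO arrays. It gave 178 for wild type against 379, 84.7 and 110.9 across KO arrays, with a log2 difference of -0.18 (SE 0.71). The KO arrays were thus both far above and far below the wild type, with a log2 SD of 1.06. The other probe sets of Lipa were at background in at least 1 array.

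Among the activators and lipid carriers, Npc2, which hands cholesterol to Npc1, gave 8329 for wild type against 7333, 7441 and 11363 across KO arrays (0.034, SE 0.37), on both sides of the wild type. Psap, the precursor of the saposins that present sphingolipids to their hydrolases, gave 2991 for wild type against 3289, 1634 and 1476 across KO arrays (-0.58, SE 0.48). Grn, the progranulin precursor of lysosomal granulins, gave 1079 for wild type against 1604, 769 and 1011 across KO arrays (-0.0033, SE 0.44). The other probe sets of Grn, above background in all arrays, differed by -0.46 and -0.38, and the mean of all its probe sets by -0.28. In the probe sets used for Psap and Grn, KO replicate 1 was the highest array and KO replicates 2 and 3 were the lowest. Tfeb, left out by the filter, gave 96.4 for wild type against 24.8, 107 and 132 across KO arrays, each above that array's background, with KO replicate 1 alone below the wild type.

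The 2 pairs of arrays did not overlap in 16 of 33 members (48.5%), a share near the 50.6% of all kept genes. KO replicates 2 and 3 were both below the wild-type array and KO replicate 1 in 13 of 33 members (39.4%, background 25.8%) and both above them in 3 (9.09%, background 24.8%). The 13 genes were Ctsa, Ctsb, Ctsc, Ctsd, Gaa, Gla, Glb1, Grn, Gusb, Lipa, Mcoln1, Psap and Scarb2, and the 3 were Galns, Ids and Idua. The mean of the second pair over that of the first was 0.352 for Lipa, 0.447 for Gaa, 0.495 for Psap, 0.608 for Ctsc, 0.614 for Ctsd, 0.634 for Mcoln1 and 0.663 for Grn. Each array was also centred on its median over the kept genes. These array medians differed from that of wild type by 0.056, -0.010 and -0.12 in KO replicates 1, 2 and 3. The median over genes of the difference was smaller in KO replicate 3, at -0.016. With centring the count lower fell from 13 to 7 of 33 (21.2%), near the 20.2% of all kept genes, and 4 were higher (12.1%), against 31.6%. Over all kept genes centring thus moved the shares lower and higher from 25.8% and 24.8% to 20.2% and 31.6%. The 7 genes, all among the 13, were Ctsb, Ctsc, Ctsd, Gaa, Lipa, Mcoln1 and Psap. These counts describe 4 arrays, were noticed in these data and were given no test. The sex-linked transcripts, the spike-in ratios and the 18S signals given above moved with this split. The beta-actin ratio was also higher in the second pair, though it was close in KO replicates 1 and 2 (1.25 and 1.30). The summed signals of several marker lists moved with this split as well. For neural stem cells they were 39285 and 36439 in the first pair against 52495 and 56330 in the second. Fabp7 alone gave 16547 and 13667 against 25380 and 34007. Vim was also higher in the second pair, Nes, Sox9 and Msi1 were lower, and the other stem cell markers overlapped. For astrocytes the sums were 10850 and 9649 against 7581 and 9190. Of these markers S100b and Slc1a3 were lower in the second pair, and the others overlapped. For 8 neuronal markers, 4 of them above background in all 4 arrays, the sums were 2557 and 2107 against 1375 and 1492. Without Map2 they were 791 and 660 against 591 and 899, which overlap. The lists for mesenchyme, endothelium and microglia also split, at 195 to 202 against 289 to 446, 295 to 306 against 200.3 to 229, and 573 to 603 against 630 to 791. Only 1 of 6 mesenchyme, 0 of 6 endothelium and 2 of 15 microglia markers were above background in all 4 arrays. In KO replicate 3, 0 endothelium markers were above it. Background was itself higher in the second pair, so these sums are not read as amounts of a cell type. The part of these differences in the lysosomal signals was not tested.

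**Figure D2:**
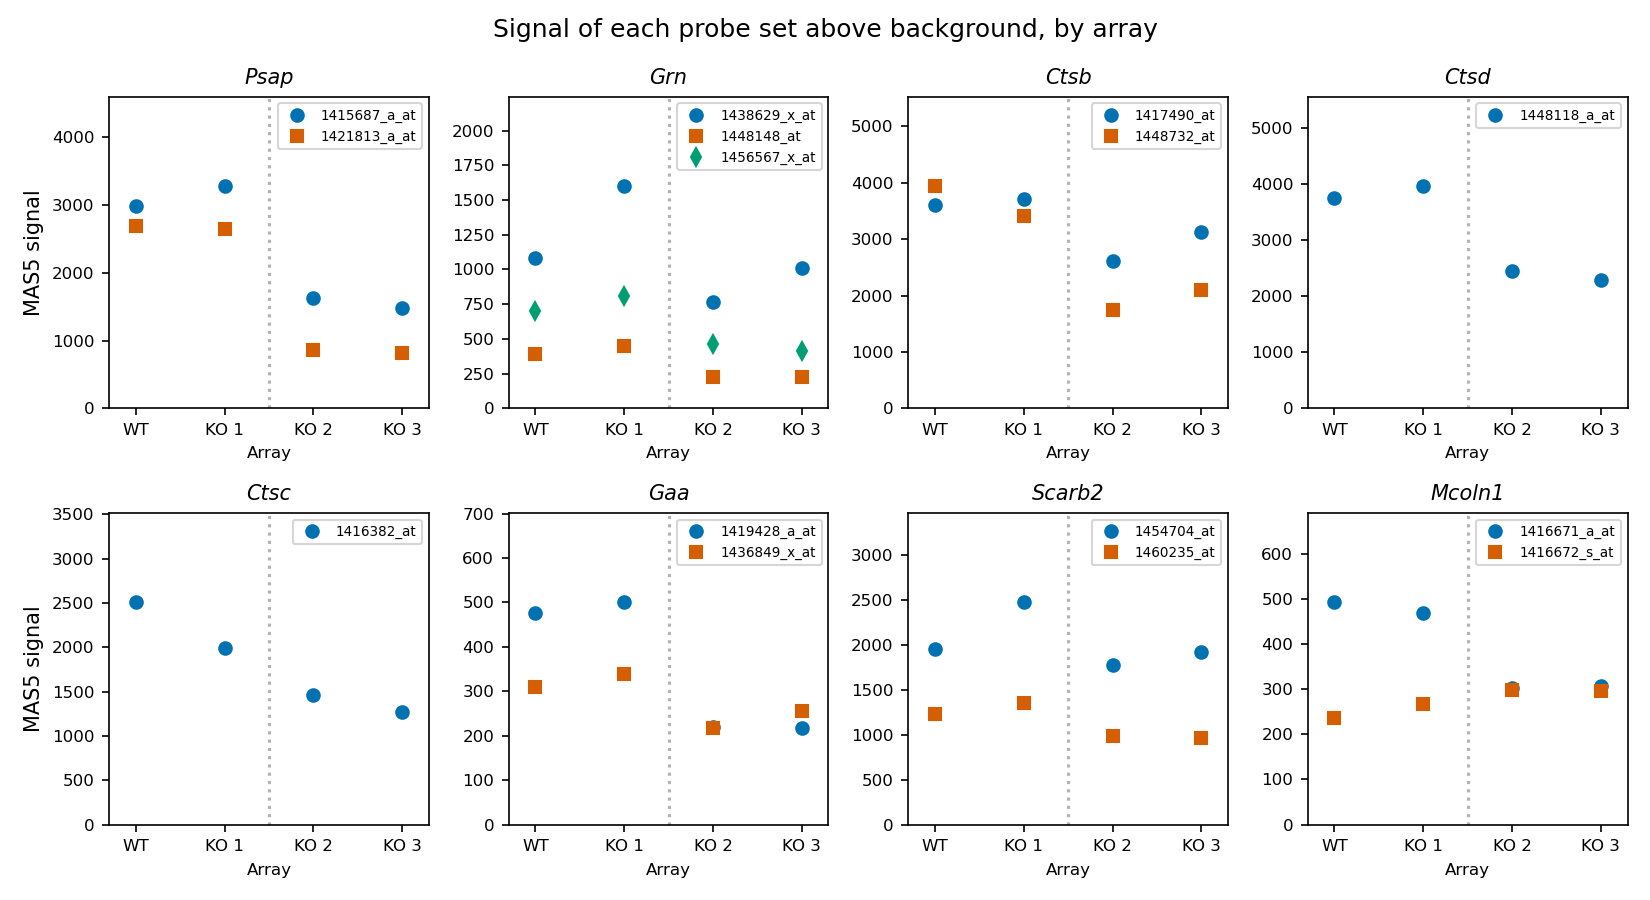
MAS5 signal in each of the 4 arrays for the probe sets above background of 8 lysosomal genes, where each symbol is 1 probe set and the dotted line parts the wild-type array and KO replicate 1 from KO replicates 2 and 3. The 8 genes are all among those counted in the text as lower in KO replicates 2 and 3. The probe set used for each gene is therefore lower to the right of the line by choice of gene. The other probe sets shown are also lower there, except 1 of Mcoln1, and were not tested.

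Each KO array was also set against the wild type alone. Differences of at least 1.5-fold on the log2(signal + 14.4) scale were counted. KO replicate 1 had 0 of 33 members lower (background 4.17%) and 2 higher (background 4.33%), Lipa and Npc1. Ctsh (-0.58) and Galns (0.57) fell just short on this scale, while their ratios of plain signals were 0.642 and 1.56. KO replicate 2 had 7 lower (background 9.13%) and 1 higher (background 9.87%). KO replicate 3 had 8 lower (background 16.1%) and 3 higher (background 12.5%). The median difference of the members from the wild type was 0.066, -0.15 and -0.064 in KO replicates 1, 2 and 3, against 0.024, 0.022 and -0.016 over all kept genes.

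Genes with several probe sets showed how far the values of 1 gene can vary by the probe set read. Above background in all arrays, 14 members had at least 2 probe sets, and all of a gene's probe sets were lower in the KO mean for 5 of these, higher for 4 and of mixed sign for 5. The widest span was that of Gusb, whose probe sets differed by 0.019 and -0.81. The latter gave 261 for wild type against 174, 124 and 134 across KO arrays, all below the wild type. Psap differed by -0.58 and -1.12. Its second probe set gave 2691 for wild type against 2642, 866 and 813 across KO arrays, so KO replicate 1 was again next to the wild type and the others were far below. Ctsb differed by -0.21 and -0.76, and the latter probe set gave 3949 for wild type against 3417, 1748 and 2093 across KO arrays. For 6 genes, Ctsb, Gaa, Grn, Gusb, Psap and Scarb2, every probe set above background in all arrays was lower in KO replicates 2 and 3 than in the first pair, and for 1, Idua, every one was higher. No share over all genes with several probe sets is given here for these counts by gene or for those by sign. They are therefore not read as a trait of the members. Over the probe sets that a filter of the same kind kept, 25 of 53 for members were lower in the second pair (background 28.9% of 12228 probe sets) and 7 were higher (background 24.2%). Probe sets of 1 gene are not independent.

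**Figure D3:**
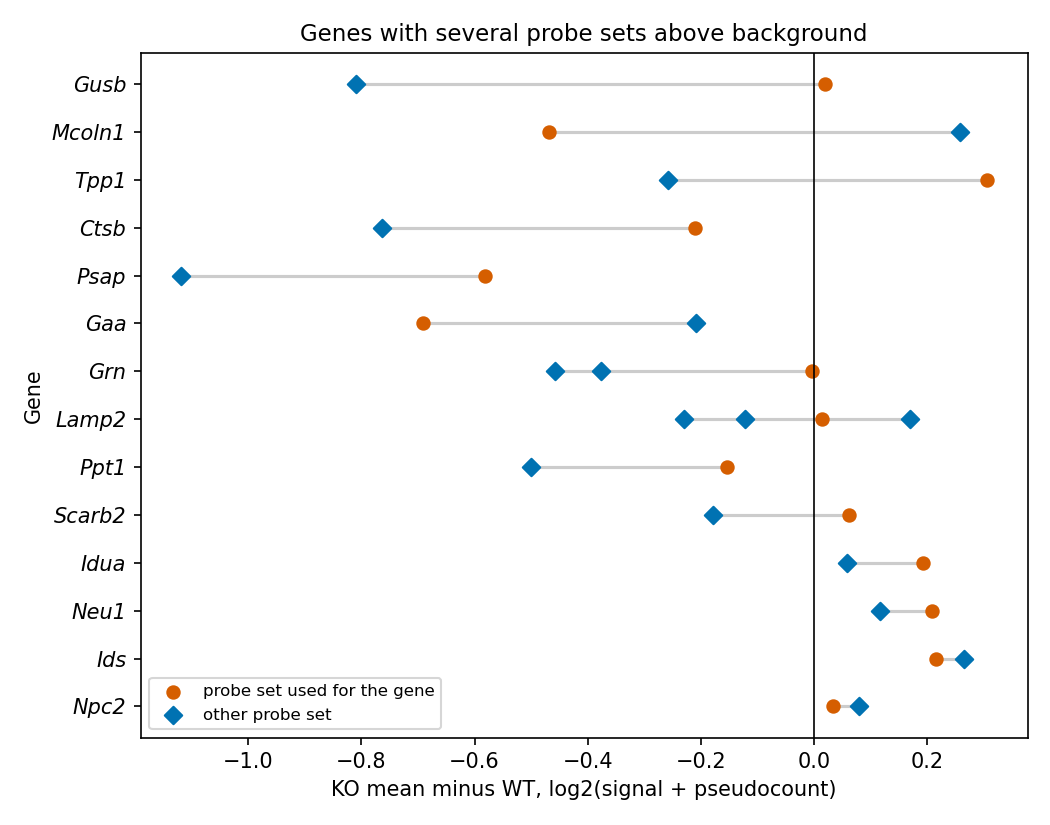
Log2 difference of the KO mean from the wild-type array for each probe set of the 14 lysosomal genes with at least 2 probe sets above background in all arrays, where circles are the probe set used for the gene, diamonds the others and grey lines the span. Gusb, Mcoln1, Tpp1, Lamp2 and Scarb2 have probe sets on both sides of 0.

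Other genes of the pathway were taken from lists and read in the same way, and none passed the test. Of 15 kept lysosomal hydrolases outside the list, 1 was above the wild type in all KO arrays (6.67%, background 23.2%). Below it in all were 3 (20%, background 20.6%), and the median was -0.14. They split by pair as well, with 8 of 15 lower in KO replicates 2 and 3 than in both other arrays (53.3%, background 25.8%) and 0 higher (background 24.8%). Other lists split less, with shares lower and higher of 18.2% and 18.2% for membrane proteins and 37.5% and 18.75% for the V-ATPase. They were 34.8% and 17.4% for sorting, 31.6% and 26.3% for autophagy, and the other way for mTORC1 and TFE factors, at 21.4% and 42.9%. Counts for these lists after median centring are not given here. Siae, a sialic acid esterase, gave 642 for wild type against 615, 399.6 and 346 across KO arrays (-0.53). Manba, the beta-mannosidase, gave 302 for wild type against 326, 149 and 187 across KO arrays (-0.50). Gm2a, the activator of ganglioside breakdown, differed by -0.42, and its KO arrays lay on both sides of the wild type. Of 11 further membrane proteins, 3 were above and 3 below in all KO arrays (27.3% each, backgrounds 23.2% and 20.6%, median 0.019). Those above included Ctns, the cystine exporter, at 121 for wild type against 169.8, 165 and 162 across KO arrays (0.41). Clcn7, a chloride-proton exchanger, and Laptm4b differed by 0.39 and 0.34.

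Of 16 subunits of the V-ATPase, the pump that acidifies the lysosome, 2 were above in all KO arrays (12.5%, background 23.2%). Below in all were 3 (18.75%, background 20.6%), and the median was 0.018. Atp6v0e2, Atp6v1b2 and Atp6v1g1 differed by -0.47, -0.44 and 0.43. Of 23 genes that sort proteins to the lysosome, 6 were above (26.1%) and 4 below (17.4%), against the same backgrounds (median 0.029). Igf2r, the large receptor for mannose 6-phosphate, gave 185 for wild type against 289.9, 285 and 215 across KO arrays (0.47, SE 0.33), all above the wild type. Vps39 and Vps18, subunits of the vesicle tethering complexes, differed by -0.53 and -0.67, with KO replicate 3 far below the rest in both. Vps39 gave 426 for wild type against 379, 367 and 175 across KO arrays. Vps18 gave 165 for wild type against 164, 131 and 41.1 across KO arrays, the last below the background of that array (87.8).

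Of 14 genes of the mTORC1 complex, its lysosomal anchors and the TFE factors, 4 were above (28.6%) and 2 below (14.3%) in all KO arrays. The backgrounds were again 23.2% and 20.6%, and the median was 0.16. Mitf, a relative of TFEB, gave 52.3 for wild type against 94.7, 154.9 and 129 across KO arrays (1.05, SE 0.36), and was not called. All KO arrays lay above the wild type, as in 23.2% of all kept genes. Its signals were low, with backgrounds of 30.5 for wild type and 21.3, 39.99 and 87.8 for KO replicates 1, 2 and 3. Tsc1, a brake on mTORC1, gave 179 for wild type against 235, 283 and 389 across KO arrays (0.68). Rraga, a GTPase that brings mTORC1 to the lysosome, gave 1584 for wild type against 1465, 905 and 436 across KO arrays (-0.91), all below the wild type. Of 19 autophagy genes, 3 were above (15.8%) and 5 below (26.3%), against the same backgrounds (median -0.10). Map1lc3a, a coat protein of autophagosomes, gave 729 for wild type against 567, 394 and 422 across KO arrays (-0.66).

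**Figure D4:**
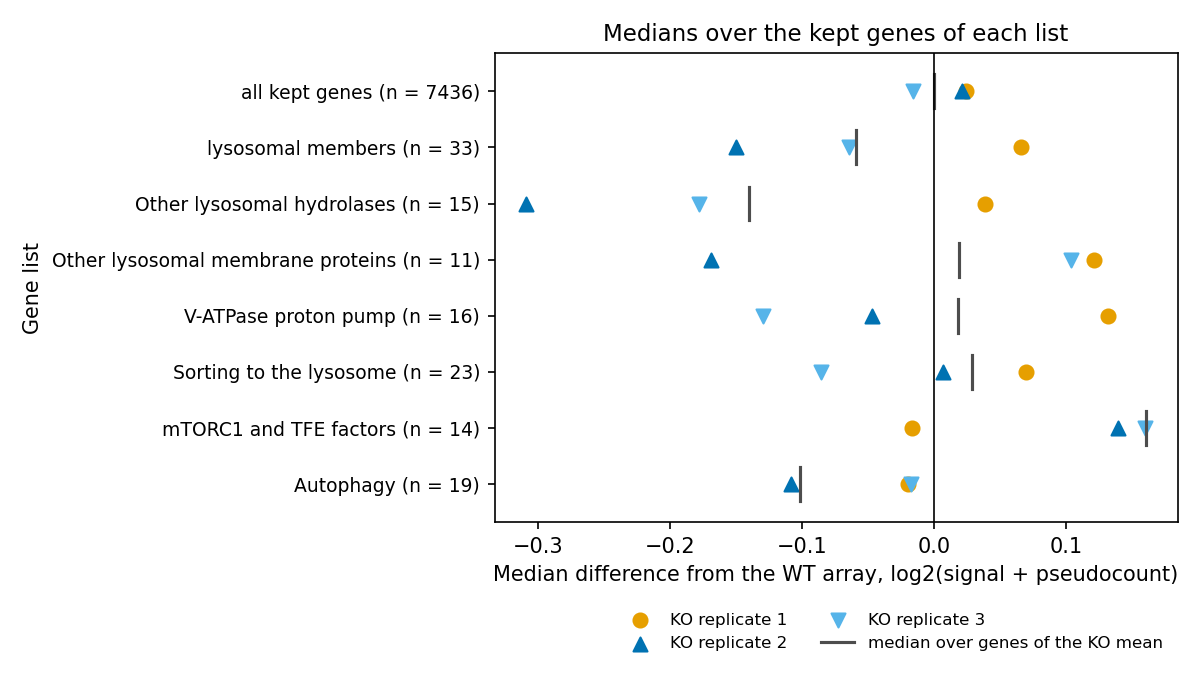
Median over genes of the log2 difference to wild type, for the kept genes of the lysosomal list, 6 further pathway lists and all kept genes, where points are single KO arrays and ticks the median over genes of the KO mean. For the lysosomal list the medians are 0.066, -0.15 and -0.064 in KO replicates 1, 2 and 3.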

How the data were processed

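Each of 4 samples was measured on 1 Affymetrix array from 6 µg of total RNA, per the labels. The deposited values are signal intensity per probe set from MAS5, as named in the submitters' processing notes. For its version, scaling target and detection calls: not given in the sources used here. Every array had a mean of 500.2 or 500.3 after trimming 2% of probe sets from each tail, and precision is limited by the small number of arrays.

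Of 22690 probe sets, 64 were controls. The platform table gave 1 symbol to 20393, several to 691 and none to 1606, with symbols updated by gene identifier through RefSeq (GRCm38.p6). Values were taken as log2(signal + 14.4), a pseudocount of 0.1 times the median, so fold changes of dim genes are understated. For a gene with several probe sets, that of highest mean log2 value was used. Leaving out the lowest 40% of 12393 genes kept 7436. The genotypes were tested with limma 3.58.1 in R 4.3.3 (lmFit, eBayes, two-sided), adjusted by Benjamini-Hochberg over all kept genes at 0.05. With 1 wild-type array the spread rests on 3 KO arrays and 2 residual degrees of freedom.

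Every array was given for members with all KO arrays on 1 side of the wild type and a log2 difference of at least 0.3 in size, for the 6 brightest, for the 4 with the largest SD over KO arrays, for 7 chosen by role, and for members with probe sets above background in all arrays and at least 0.3 away from 0 in both directions (0 found). Up to 3 genes per further list were taken by moderated t. Hexa, Cln3, Scarb2 and further probe sets were added after their values were seen. Members and lists were chosen with earlier results of these data known.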

Additional observations from a re-analysis of the deposited data

How the results depend on the processing

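The alternatives were quantile normalization, median centring, other pseudocounts and filters, the mean of all probe sets or each alone, trended or robust eBayes, the array pair as a block, and leaving out each KO array. No member was called under any of these 14 alternatives, and the lowest adjusted p of a member was 0.75. Over all genes, 1 was called higher and 1 lower without KO replicate 1, and 0 to 1 in each direction when each KO array was left out in turn. With the lowest 60% of genes left out, 2 of 23 members were above (22.5% of all genes) and 4 below (20.5%) the wild type in all KO arrays. With every probe set fitted alone, 16 of 53 were below it (23.6% of all). Below it in every remaining KO array were 7 to 17 members: 17 without KO replicate 1 (34.9% of all genes), 7 without KO replicate 2 (26.0%) and 13 without KO replicate 3 (28.6%). Blocking on array pair moved the median of the members to 0.066, since it leaves the wild type against KO replicate 1.

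The count of members lower in KO replicates 2 and 3 was 7 with median centring (20.2% of all genes) and 25 of 53 with every probe set fitted alone (28.9%). Without KO replicates 1, 2 and 3 in turn it was 17, 19 and 18, against 34.9%, 43.4% and 37.5% of all genes, where fewer arrays are compared. These settings for that count were chosen after seeing the data. With quantile normalization it was 11 (21.8% of all genes), of which 8 were among the 13.

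Among the values of named members under the alternatives, 22 changed sign, none of them called, and 206 did not, and the cause was not tested. Blocked on array pair, Ctsb was 0.043, Ctsd 0.083, Gaa 0.075, Grn 0.57, Lamp2 -0.20, Lipa 1.04, Npc2 -0.18 and Psap 0.14. With quantile normalization, Grn was 0.028, Lamp1 -0.035, Lamp2 -0.11 and Npc2 -0.17. With median centring, Asah1 was 0.00031 and Grn 0.021. With the mean of all probe sets, Lamp2 was -0.042. Leaving out 1 KO array moved Asah1 between -0.054 and 0.014, Grn between -0.29 and 0.24, Lamp2 between -0.15 and 0.12, Lipa between -0.78 and 0.21 and Npc2 between -0.17 and 0.14.

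No paired analysis was possible because the labels give no replicate numbers shared by the groups, and the pair of arrays used as a block was read from sex-linked signals.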
